A study of Mus musculus with 10 samples.

Results

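The Sprouty and Spred genes encode feedback inhibitors of RAS and ERK signalling. They were taken by name from the deposited gene table, as the 6 rows named Spry1, Spry2, Spry4, Spred1, Spred2 and Spred3 among 57010 genes. Each of these rows was among the 18966 genes tested after the filter on low counts, and Spry4 passed it through its activated libraries only. Values were read in all 10 libraries, from CD8+ T cells of the spleens of 5 mice. Both Dusp2 alleles were floxed in every mouse (Dusp2 fl/fl). The 3 conditional knockout mice (cKO) also carried E8I-cre (+/-), a cre driven by an enhancer of the Cd8 locus, and the 2 control mice lacked it (E8I-cre -/-). DUSP2 is a nuclear phosphatase that dephosphorylates MAP kinases. From each mouse came 1 library of cells cultured for 24 h with anti-CD3/CD28 beads (activated), which engage the antigen receptor complex and a co-stimulatory receptor, and 1 of cells kept for the same time without beads (rested). The sources used here give neither strain nor age of the mice, and no E8I-cre mouse without floxed Dusp2 was among the samples, so an effect of cre alone cannot be told apart from loss of Dusp2.

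Sprouty proteins are induced by receptor signals and then dampen the route from the receptor through RAS to the kinases RAF, MEK and ERK. Spred proteins share the cysteine-rich C-terminal domain of the Sproutys and add an N-terminal EVH1 domain, and SPRED1 and SPRED2 bring the RAS-inactivating protein neurofibromin to the membrane. In T cells the antigen receptor drives this same cascade, and ERK raises the transcription of several of its own inhibitors.

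Libraries held 51203786 to 65135435 counts. Levels are given as CPM (TMM-scaled counts relative to library size), and 3 counts correspond to 0.0453 to 0.0602 CPM. Dusp2, the targeted gene, lay at 24.8 to 28.1 CPM in rested cKO and 87.8 to 97.4 CPM in rested control libraries, and at 46.4 to 56.3 CPM against 292 to 299 CPM after activation. All 7 CD8 T cell markers examined (Cd3e, Cd3d, Cd3g, Cd8a, Cd8b1, Lck and Trac) were present, at a summed 2865 to 3567 CPM, beside 2.74 to 6.32 CPM for 6 B cell and 10.9 to 17.9 CPM for 9 myeloid markers. For cKO mouse 3 the titles of its pair of libraries contradict their genotype and treatment fields and library names, and the latter were followed. Control mouse 2 and cKO mouse 3 were female and the others male, and their names also begin with another number, so sex and that number cannot be told apart. In bulk libraries, fewer cells of a type and less RNA per cell cannot be told apart.

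The upstream sequences of Spry1, Spry2 and Spred3 are shown because these genes rose with activation from low resting levels. RefSeq gave a promoter window, 250 bases before to 50 bases after the start, for 5 of the 6 genes, all but Spry4. The windows are those of GRCm38.p6, another build than the mm39 of the expression table. The 250 upstream bases of Spry1 (chr3:37639697-37639946, + strand), Spry2 (chr14:105896820-105897069, - strand) and Spred3 (chr7:29168648-29168897, - strand) are given 5′ to 3′, with each CpG in capitals.
Spry1: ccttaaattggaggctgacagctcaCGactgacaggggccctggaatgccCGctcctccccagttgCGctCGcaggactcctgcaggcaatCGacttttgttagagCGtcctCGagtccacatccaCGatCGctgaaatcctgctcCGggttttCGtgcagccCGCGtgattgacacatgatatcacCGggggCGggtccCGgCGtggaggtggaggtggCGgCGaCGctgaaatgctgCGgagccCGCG
Spry2: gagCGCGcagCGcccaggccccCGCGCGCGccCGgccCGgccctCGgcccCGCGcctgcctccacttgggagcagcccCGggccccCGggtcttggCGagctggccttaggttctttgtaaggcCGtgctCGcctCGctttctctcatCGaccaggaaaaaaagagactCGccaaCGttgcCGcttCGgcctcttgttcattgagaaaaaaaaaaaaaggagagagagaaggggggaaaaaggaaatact
Spred3: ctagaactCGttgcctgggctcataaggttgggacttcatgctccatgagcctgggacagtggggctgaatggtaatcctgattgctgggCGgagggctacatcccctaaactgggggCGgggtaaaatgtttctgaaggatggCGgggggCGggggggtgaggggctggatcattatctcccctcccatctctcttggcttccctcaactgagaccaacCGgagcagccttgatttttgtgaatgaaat
The stretches of Spry1 and Spry2 each hold 23 CpG at a GC content of 62.4%, and that of Spred3 holds 6 at 55.6%. Spred1 had 31 CpG and Spred2 12, against a median of 6 over the 32851 upstream stretches in the table. The count of CpG was chosen after the expression values were seen. On both strands of the 300-base windows, none of the 5 genes held the ETS core CCGGAAG, the AP-1 site TGANTCA, the CRE TGACGTCA, the E-box CACGTG, the TATA box TATAAA or the CArG box. These letters are in 8.86%, 7.81%, 1.79%, 7.15%, 13.6% and 1.63% of all windows of that length, in the same order.

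The first comparison asked which of these genes differ between rested and activated cells. All 6 were higher after activation in both genotypes, by the quasi-likelihood test of edgeR, adjusted over all genes by the Benjamini-Hochberg method. The Sproutys Spry1 and Spry4 rose far more than the others, Spry4 from 1 to 3 counts a library and Spry1 from 18 to 31, and Spred2 rose least. Of all genes tested, 28.5% were called higher in control and 31.5% in cKO cells, and the median log2 fold change of all genes was -0.00 and -0.01. The presence of Spry4 among the genes tested depended on its activated level, so its place in that count was fixed by the filter, and the other 5 were called without this condition. Among 3 CD4 T cell markers, summed at 2.77 to 9.43 CPM at rest and 12.6 to 33.3 CPM after activation, Zbtb7b alone was higher with activation, at 2.15 to 8.05 and 11.8 to 31.9 CPM. Cd4 lay at 0.160 to 1.22 and 0.226 to 0.776 CPM and Foxp3 at 0.461 to 0.885 and 0.387 to 0.736 CPM. Summed stromal and endothelial markers were lower after activation, at 66.1 to 84.6 CPM against 124 to 161 CPM, nearly all of it Pecam1. The part of these markers in the result was not tested.

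**Figure D1:**
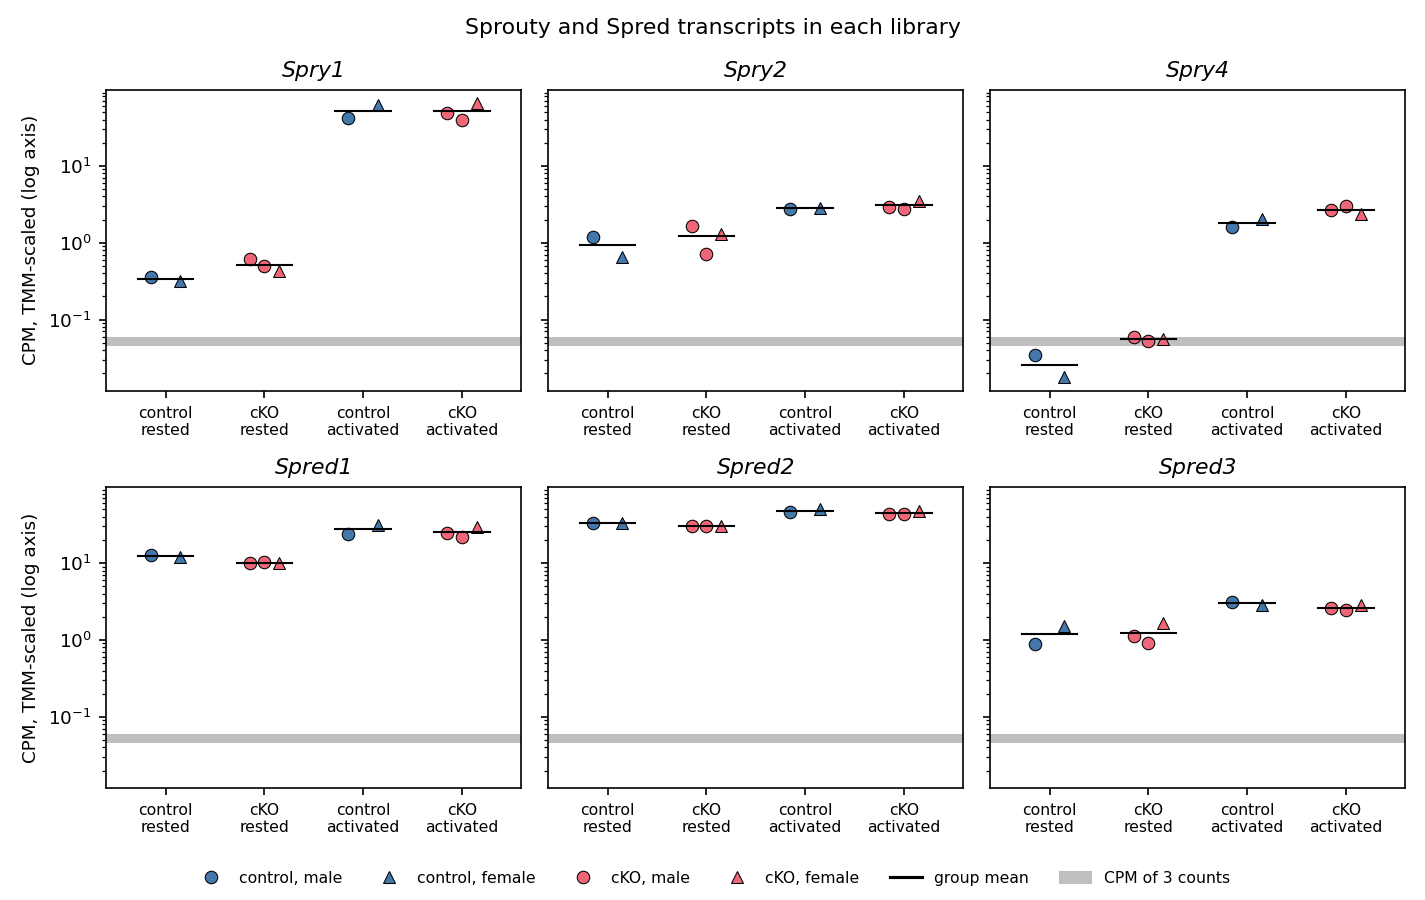
Level of each of the 6 genes in each of the 10 libraries, in CPM on a log axis, by group. Points are single libraries (2 control and 3 cKO mice per state, triangles for females), black bars group means and the grey band the CPM of 3 counts, and every activated library lies above every rested library for each gene.

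Spry1 (ENSMUSG00000037211; chromosome 3, 37694096 to 37698747 in mm39) has a single coding exon of 313 codons. Its protein is known in T cells as an inhibitor of antigen receptor signalling. In rested cells Spry1 stood at 0.360 and 0.319 CPM in control mice 1 and 2 and at 0.622, 0.504 and 0.424 CPM in cKO mice 1 to 3. After activation it stood at 42.5 and 61.0 CPM in control and at 48.5, 39.6 and 65.1 CPM in cKO cells. The lowest activated library was thus above the highest rested one by a wide margin, and activated control and cKO libraries overlapped. On the log2 scale it rose by 7.23 (SE 0.22, adjusted p = 3.55e-10, edgeR) in control and 6.61 (SE 0.17, adjusted p = 4.72e-11) in cKO cells, which ranked 58th and 83rd of 18966 genes. Within a mouse, the rise was 78.0-fold to 191-fold, with a median of 118-fold over 5 mice. The opposite-strand gene Gm42922 overlaps Spry1, and its row held 0 counts in rested libraries and 9 to 32 in activated ones, beside 2294 to 4044 for Spry1.

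Spry4 (ENSMUSG00000024427; chromosome 18) also has 1 coding exon, of 300 codons, and encodes an inhibitor that binds the kinase TESK1. At rest it was barely detected: control libraries held 2 and 1 counts and each cKO library 3 counts. After activation Spry4 stood at 1.62 and 2.02 CPM in control and at 2.67, 3.03 and 2.34 CPM in cKO cells. Every activated library was above every rested one, and every activated cKO library was above both activated control libraries. Pooled over mice, Spry4 had 231 counts against 3 in control cells, a ratio of 70.1 after depth scaling (exact 95% interval 23.7 to 342, counting error only). In cKO cells it had 478 against 9 counts, a ratio of 48.0 (25.1 to 106). The fitted log2 values of 6.02 (SE 0.43, adjusted p = 1.11e-07, edgeR) and 5.53 (SE 0.31, adjusted p = 5.46e-09) depend on the prior count at so low a resting level. The control value was 6.67 without control mouse 1 and 5.49 without control mouse 2.

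Spry2 (ENSMUSG00000022114; chromosome 14, 106129381 to 106134253) has 1 coding exon of 315 codons and encodes the Sprouty best known for binding the ubiquitin ligase CBL. It stood at 1.20 and 0.656 CPM in rested control and at 1.63, 0.713 and 1.31 CPM in rested cKO libraries. Activated libraries held 2.78 and 2.82 CPM in control and 2.91, 2.78 and 3.50 CPM in cKO cells. The resting values were spread widely within each genotype, whereas the activated ones were close together, and no activated library was as low as a rested one. On the log2 scale Spry2 rose by 1.59 (SE 0.35, adjusted p = 0.00177, edgeR) in control and 1.34 (SE 0.28, adjusted p = 0.000953) in cKO cells. Within a mouse the rise was 1.79-fold to 4.30-fold.

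Spred1 (ENSMUSG00000027351; chromosome 2, 116951855 to 117012760), with 7 coding exons and 444 codons, lies 10.2 Mb from Dusp2 on the same chromosome. Its product recruits neurofibromin. It stood at 12.7 and 12.1 CPM in rested control and at 9.90, 10.3 and 9.92 CPM in rested cKO libraries, and after activation at 24.2 and 31.2 CPM and at 25.0, 21.8 and 29.0 CPM. The rested cKO libraries were all below the rested control libraries, while the activated ones overlapped. Spred1 rose by 1.15 on the log2 scale in control (SE 0.12, adjusted p = 3.13e-06, edgeR) and by 1.32 in cKO cells (SE 0.10, adjusted p = 8.23e-08).

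Spred2 (ENSMUSG00000045671, chromosome 11, 19874375 to 19974026), with 7 coding exons and 437 codons, encodes another neurofibromin-binding member. It had the highest resting level and the smallest rise. Rested libraries held 32.8 and 33.0 CPM in control and 30.5, 30.8 and 30.0 CPM in cKO cells, and activated ones 45.5 and 50.1 CPM and 42.9, 43.0 and 47.2 CPM. Its log2 fold change was 0.54 in both genotypes (SE 0.07 in control and 0.06 in cKO, adjusted p = 2.12e-05 and 2.13e-06, edgeR), and the rise within a mouse was 1.39-fold to 1.57-fold. Spred2 thus varied least between mice at rest and changed least with activation.

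Spred3 (ENSMUSG00000037239; chromosome 7, 28858254 to 28869836), with 5 coding exons and 408 codons, encodes the least studied Spred. Its row overlaps that of the opposite-strand gene Ggn, which held 0 to 4 counts beside 51 to 191 for Spred3. It stood at 0.874 and 1.51 CPM in rested control and at 1.12, 0.904 and 1.64 CPM in rested cKO libraries. After activation the values were 3.08 and 2.88 CPM in control and 2.57, 2.43 and 2.84 CPM in cKO cells. The activated cKO libraries were all below the activated control libraries, and the rested groups overlapped. Spred3 rose by 1.36 (SE 0.25, adjusted p = 0.000433, edgeR) and 1.12 (SE 0.21, adjusted p = 0.00034) on the log2 scale.

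**Figure D2:**
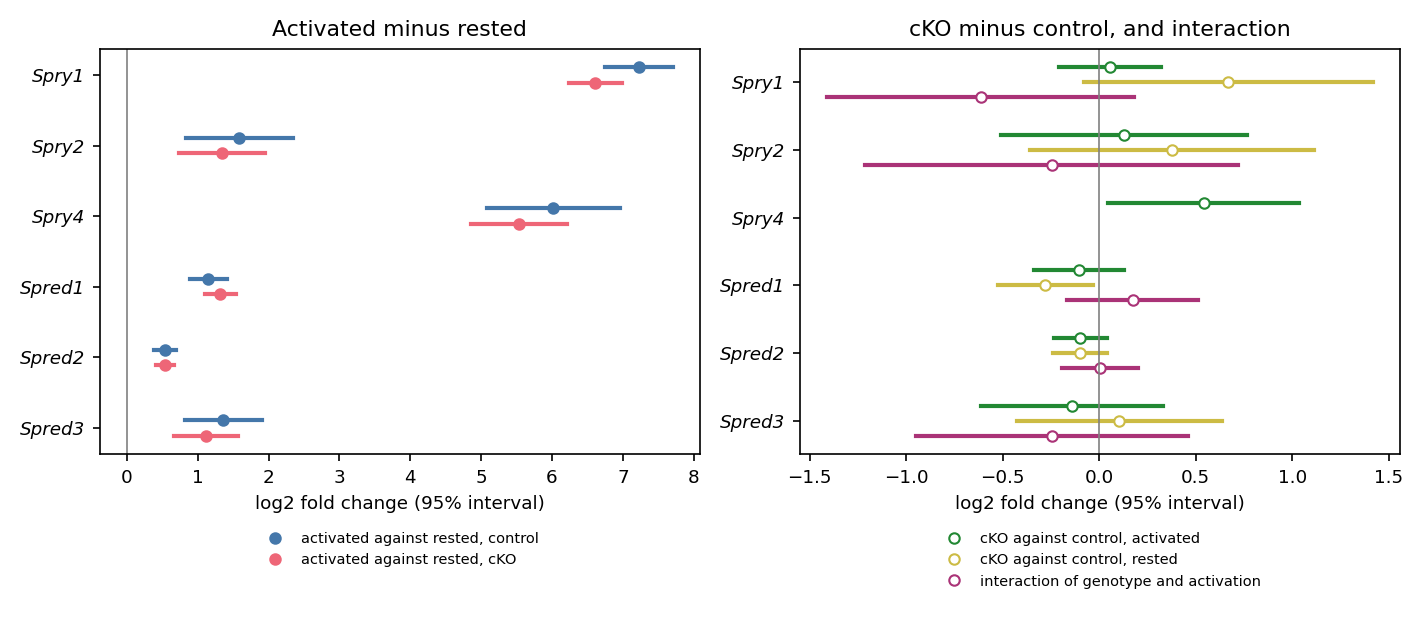
Log2 fold changes of the 6 genes in the activation, genotype and interaction comparisons (x axis), with 95% intervals from the fit. Spry4 is not drawn for the genotype comparison at rest or the interaction. Every activation value lies above 0, from 0.54 for Spred2 to 7.23 for Spry1, and no genotype or interaction value was called.

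Levels of different genes were compared per length, as deposited FPKM. At rest Spred2 led, with a mean of 6.95 FPKM in control and 6.45 FPKM in cKO cells, followed by Spred1, Spry2, Spred3, Spry1 and Spry4. Only the ranges of Spred3 and Spry1 in cKO cells overlapped among neighbours in this order. After activation Spry1 led, at 18.2 FPKM in control and 18.0 FPKM in cKO cells, ahead of Spred2 at 10.6 and 9.83 FPKM, Spred1 at 4.18 and 3.81 FPKM, and Spry2 at 1.37 and 1.50 FPKM. The last places differed: Spred3 was above Spry4 in control cells (0.490 against 0.392 FPKM) and below it in cKO cells (0.430 against 0.577 FPKM), with no overlap of the libraries in either. The difference of this order between genotypes was not tested.

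The makeup of the family moved from mostly Spred2 to Spry1 as the largest part. Summed over the 6 genes, rested libraries held 9.48 ± 0.11 FPKM in control (SD, n = 2) and 8.84 ± 0.18 FPKM in cKO cells (SD, n = 3), and activated ones 31.1 to 39.4 and 29.2 to 40.3 FPKM. The Sprouty share was 4.45% to 7.19% and 5.93% to 10.9% at rest, and 53.9% to 58.9% and 54.7% to 62.2% after activation, control first. Spry1 alone went from 1.14% to 1.26% of the sum in rested control libraries to 48.4% to 54.3% in activated ones. Spred2 went from 72.3% to 74.4% in those rested libraries down to 28.1% to 32.6%. The mean share of Spry2 was lower after activation, at 3.95% against 4.57% in control and 4.42% against 6.41% in cKO cells. Within mice, however, the share of Spry2 moved both ways, and rested and activated libraries overlapped in both genotypes. It fell in control mouse 1 and in cKO mice 1 and 3. It rose in control mouse 2, from 3.27% to 3.49%, and in cKO mouse 2, from 3.85% to 4.67%. The share of Spry4 was at most 2.24% in any library. The summed Spreds were higher after activation, at 15.3 against 8.93 FPKM in control and 14.1 against 8.09 FPKM in cKO cells, so their smaller share came with a higher level.

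**Figure D3:**
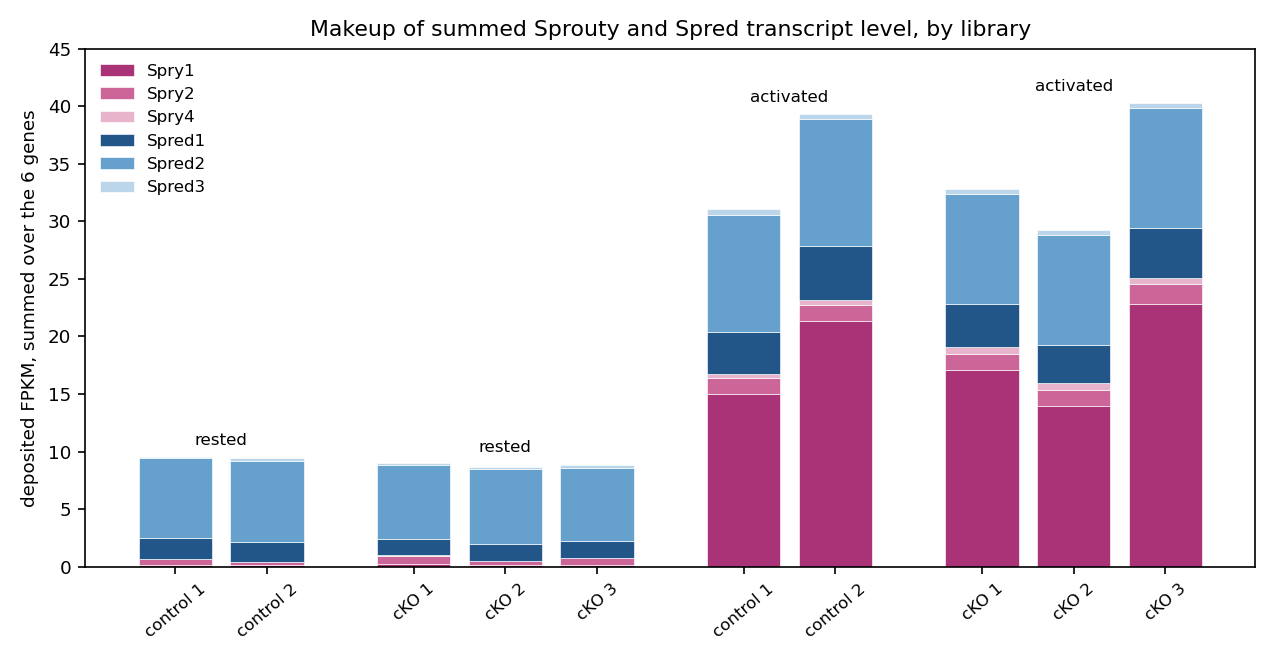
Summed FPKM of the 6 genes in each library, as stacked bars from 0, with the part of each gene in colour. Rested bars reach 8.65 to 9.56 FPKM and are mostly Spred2, while activated bars reach 29.2 to 40.3 FPKM with Spry1 as the largest part.

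The second comparison asked whether these transcripts differed between cKO and control cells. None of the 6 was called at rest, after activation or in the interaction, by the same adjusted edgeR test. The background was low too: 0.0422% of genes (8 of 18966) in each genotype comparison and 0% in the interaction. At an unadjusted p below 0.05 stood 1 of the 6 in each genotype comparison (Spry4 after activation, Spred1 at rest) and 0 in the interaction. Of all genes, 6.02% (1141) did so after activation, 4.13% (783) at rest and 2.74% (519) in the interaction. DESeq2's Wald test called no member in these comparisons, and it gave no adjusted p for Spry4 after activation. Beside these comparisons, 6 NK cell markers summed to 1.97 to 3.34 CPM in rested control and 4.28 to 6.72 CPM in rested cKO libraries, and to 1.78 to 2.96 and 4.45 to 5.18 CPM after activation. At rest only Klre1 did not overlap between genotypes, at 0.745 to 1.47 CPM in control and 1.51 to 3.99 CPM in cKO libraries. Ncr1 was at 0 CPM in every rested library. After activation Klre1, Klra8 and Klri2 did not overlap, each higher in cKO, while Ncr1, Klrb1c and Gzma did. Of the CD4 T cell markers, only Cd4 at rest did not overlap between genotypes, at 0.160 to 0.326 CPM in control and 0.678 to 1.22 CPM in cKO libraries. The part of the NK and CD4 T cell markers in the values was not tested.

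After activation the interval of the difference was narrow for Spry1, at 0.05 on the log2 scale (95% interval -0.21 to 0.32, adjusted p = 0.96, edgeR), for Spred1 at -0.11 (-0.34 to 0.13, adjusted p = 0.892) and for Spred2 at -0.10 (-0.24 to 0.04, adjusted p = 0.847). It was wider for Spry2 at 0.13 (-0.51 to 0.77, adjusted p = 0.961) and Spred3 at -0.14 (-0.61 to 0.33, adjusted p = 0.936). Spry4 gave 0.54 (0.05 to 1.04), with an unadjusted p of 0.0345 and an adjusted p of 0.814 by edgeR. It was 0.23 without control mouse 1 and 0.80 without control mouse 2. Between mice of the same sex it was 0.81 in males (2 cKO and 1 control mouse) and 0.21 in females (1 of each). The libraries of the groups did not overlap for Spry4, higher in cKO, and Spred3, lower in cKO, which is 2 of 6 genes beside 17.1% of all genes.

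At rest Spry1 gave 0.67 (-0.08 to 1.42), Spry2 0.38 (-0.36 to 1.11), Spred2 -0.10 (-0.24 to 0.04) and Spred3 0.10 (-0.43 to 0.63), with adjusted p of 1 for each by edgeR. For Spry1 the value was 0.35 without control mouse 2, 0.46 without cKO mouse 1, and 0.95 without control mouse 1 or cKO mouse 3. Between mice of the same sex it was 0.65 in males and 0.41 in females. With a sex term for each state it was 0.54. Spred1 gave -0.28 (-0.53 to -0.03), with an unadjusted p of 0.0294 and an adjusted p of 1. Its difference was -0.33 in males and -0.29 in females. No fold is given for Spry4, which had at most 3 counts a library. Libraries did not overlap for Spry1 and Spry4 (higher in cKO) and for Spred1 and Spred2 (lower in cKO), 4 of 6 genes beside 17.6% of all genes. For Spry4 this rests on 2 and 1 counts in control against 3 in each cKO library. These intervals are not adjusted for the number of genes.

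The interaction asks whether the activation response itself differed, as cKO minus control. It was -0.61 for Spry1 (-1.41 to 0.18), -0.25 for Spry2 (-1.22 to 0.72), 0.17 for Spred1 (-0.17 to 0.51), 0.00 for Spred2 (-0.19 to 0.20) and -0.24 for Spred3 (-0.95 to 0.46), each with an adjusted p of 1 by edgeR. For Spry1 it was -0.26 without control mouse 2, -0.46 and -0.45 without cKO mice 1 and 2, and -0.93 and -0.94 without control mouse 1 and cKO mouse 3. With a sex term for each state it was -0.47. The response of Spred2 was thus bounded most tightly, and that of Spry2 least. Spry4 is left out because of its resting counts.

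In the same fit, Spry1 was the sole member called between female and male mice, a term looked at after the values were seen. It was higher by 0.45 on the log2 scale in females (SE 0.11, adjusted p = 0.0476, edgeR), where 1.24% of all genes were called higher. Both libraries of a mouse entered this term as if independent, so its SE and p do not measure the spread between mice. A fit with a sex term for each state gave the female minus male difference in the activation response. It was 0.86 for Spry1, 0.42 for Spry2, 0.38 for Spred1, 0.15 for Spred2 and -0.67 for Spred3. No member was called there (lowest adjusted p = 0.114, edgeR). For Spry1, activated female libraries held 61.0 and 65.1 CPM and activated male ones 42.5, 48.5 and 39.6 CPM. At rest the females, at 0.319 and 0.424 CPM, were not above the males. The call was lost when any of the mice was left out (adjusted p = 0.0565 to 0.299), with the stricter low-count filter (0.0529), with DESeq2 (0.504) and with limma on FPKM (0.384).

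The neighbourhood of these genes in the pathway was read from 4 lists of genes. A gene near 0 at rest can pass the low-count filter through its activated libraries only, as Spry4 did. Its place among the genes that rose is then fixed by the filter. Which genes of the lists passed in this way was not examined. Of 15 tested transcripts known to follow ERK activity, 14 rose and 1 fell in each genotype, with median log2 fold changes of 4.48 in control and 4.07 in cKO cells. Of all genes, 27.6% were called lower in control and 31.9% in cKO cells, beside the shares called higher given above. Egr3, a transcription factor of the early growth response family, went from 1.40 ± 0.26 to 198 ± 3.6 CPM in control (SD, n = 2) and from 1.94 ± 0.41 to 176 ± 7.1 CPM in cKO cells (SD, n = 3), log2 fold changes of 7.15 and 6.51. Fosl1, an AP-1 subunit, rose by 7.71 and 6.81, Dusp6, a cytoplasmic ERK phosphatase, by 2.10 and 2.17, and Nab2, a corepressor of EGR factors, by 1.80 and 2.05. The gene that fell was Ier3, at -1.11 and -1.03, named after its values were seen. In size of response Spry1 thus stood beside Egr3, and Spry2 and Spred3 below Dusp6.

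The genes of the cascade itself centred near 0. Of 24 tested RAS-ERK cascade genes, 5 rose and 11 fell in control and 5 rose and 12 fell in cKO cells, with medians of -0.10 and -0.12. Rasgrp4, among those that rose, was near 0 at rest, with a mean of 0.00887 CPM in control cells against 0.711 CPM after activation. Mapk3, which encodes the kinase ERK1, fell by 1.20 and 1.15 on the log2 scale, Rasgrp2, a RAP and RAS exchange factor, by 1.85 and 2.02, and Sos1, a RAS exchange factor, by 0.48 and 0.56. Ksr1, a scaffold of RAF and MEK, rose by 0.59 and 0.85. Of 10 RAS GTPase-activating proteins, 4 rose and 3 fell in each genotype, with medians of -0.01 and 0.06. Rasal3 fell by 1.27 and 1.39 and Rasa3 by 1.27 and 1.32, while Nf1, which encodes neurofibromin, rose by 0.90 and 0.81 and Rasal1 by 1.68 and 1.65.

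Of 11 tested binding partners of Sprouty and Spred proteins, 5 rose in each genotype, and 4 fell in control and 3 in cKO cells, with medians of 0.08 and 0.06. The ubiquitin ligase gene Cbl fell by 0.72 and 0.87, whereas its relative Cblb rose by 0.61 and 0.65 and the ubiquitin ligase gene Siah2 by 1.04 and 1.02. Nf1 belongs to this list too. No gene of the 4 lists was called in the genotype comparisons or the interaction by edgeR. In the genotype comparisons the smallest p was that of Rasgrp4 at rest (unadjusted p = 0.00874, adjusted p of 1, edgeR). Its levels were 0.00887 ± 0.013 CPM in control (SD, n = 2), below the 3-count floor, and 0.129 ± 0.11 CPM in cKO cells (SD, n = 3). Others by rule were -0.20 for Braf after activation (adjusted p = 0.725), -0.17 for Cbl (0.769) and -0.15 for Nf1 (0.838), and 0.48 for Egr3 and -0.19 for Nab2 at rest (adjusted p of 1).

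**Figure D4:**
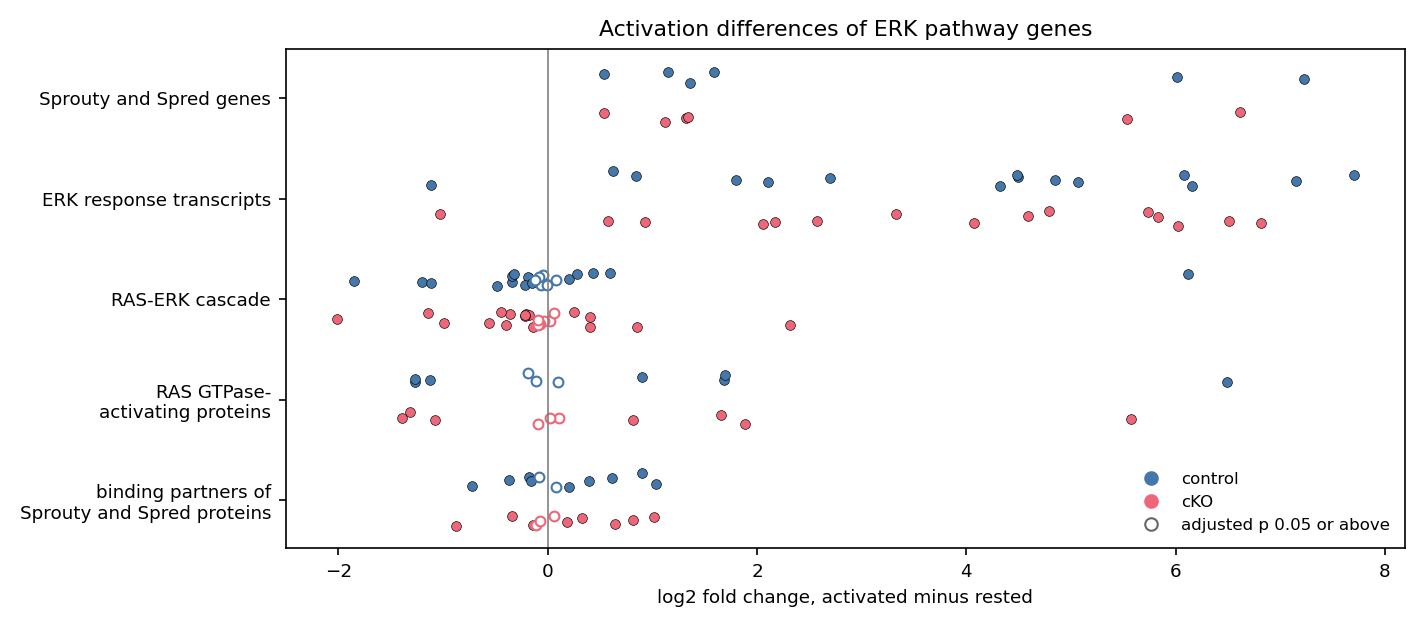
Log2 fold change with activation (x axis) of every tested gene of the 4 lists and of the 6 Sprouty and Spred genes, in control and cKO cells, open where the adjusted p was 0.05 or above. ERK response transcripts have the highest values among the lists, with a median of 4.48 in control, and the cascade centres near 0, at -0.10, while fitted values of genes near 0 at rest (Spry4, Rasgrp4, Dab2ip) depend on the prior count.

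Across the 10 libraries the 6 genes followed each other, with Pearson r of log2 CPM from 0.822 to 0.995 between pairs. These points share the activation state, so r is a description. Among 9358 genes averaging 5 CPM or more, those most like Spry1 were Tma16, Gtf3c6 and Hivep3 (each r = 0.999), and those most like Spry4 were Ss18l2 (0.998), Zfas1 and Samsn1 (both 0.996). Spry2 was followed most closely by Haus1 (0.985), Pyurf (0.969) and Lrp8 (0.968), and Spred3 by Apip (0.988), Bach2it1 (0.983) and Bcl3 (0.982). Spred1 and Spred2 were each among the 3 genes most like the other (0.995), and both lists held Map3k7 (0.995). The third gene was Mfsd14a for Spred1 (0.996) and Csrp1 for Spred2 (0.993).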

How the data were processed

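Stranded mRNA libraries were made from total RNA, per the labels' protocols. Per the submitters' processing notes, reads were handled with Subread, FastQC and MultiQC on mm39. Aligner settings, annotation release and the use of strand in counting were not given in the sources used here. Overlapping genes are therefore uncertain. The deposited values are whole-number counts per gene and library, and FPKM values that the authors derived from them, which match counts over length and column sum within a relative deviation of 9.4e-07. Of 57010 genes, 24326 had no count.

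Counts were fitted in R 4.3.3 with edgeR 4.0.16: TMM, filterByExpr by group, and a robust quasi-likelihood fit of 4 group means plus sex over 10 libraries (5 residual degrees of freedom, median prior 7.95, biological coefficient of variation 9.14%). An adjusted p below 0.05 (Benjamini-Hochberg over all genes) is a call. SE is the log2 fold change over the square root of F. The fit was tested on simulated data. Alternatives used limma 3.58.1 and DESeq2 1.42.0, and tables Python 3.11.15. Intervals and floors from counts cover counting error only. Codon and exon numbers come from GENCODE M21 by gene identifier. The alternatives were other size factors, filters, sex terms, mouse blocks, tests and sets of libraries, FPKM with an offset of 0.5, and leaving out each mouse.

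The members, lists and naming rule were chosen with earlier results of these data known. Named were every member, Dusp2, of each list up to 4 genes by smallest p in an activation comparison and 2 in the genotype comparisons, and the 3 genes most like each member in libraries' log2 CPM (prior count 2), without predicted genes and receptor segments. Rested and activated libraries of a mouse pair by design: their deviations from group means correlated at 0.255, 0.146 and 0.334 in cKO mice and 0.356 in the control mice, which mirror each other. Where a mouse was left out of the controls, the spread of the other groups stands in for that of the lone one.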

Additional observations from a re-analysis of the deposited data

How the results depend on the processing

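Over the alternatives, all 174 activation values of members were higher and called, and 0 of 216 genotype and interaction values were called. The 216 leave out Spry4 at rest and in the interaction, and Spry4 after activation with DESeq2. With the stricter low-count filter (5 CPM in 2 libraries), 3 members were called in each activation comparison, because only 3 passed the filter. With mouse as a block, 6 of 6 were called in both activation comparisons, and pairing changed no call. Without a sex term, Spry1 in activated cKO against control was -0.0194. The interaction of Spred2 was -0.00184 with the stricter filter and -0.000814 with limma on log2(FPKM + 0.5). That offset compresses low genes by construction: Spry4 rose by 0.82 and 1.07 there, against 6.02 and 5.53. Leaving out each mouse in turn, values of cKO against control after activation ranged from -0.16 to 0.28 for Spry2 and from -0.38 to 0.14 for Spred3. At rest they ranged from -0.0837 to 1.02 for Spry2 and from -0.0695 to 0.31 for Spred3. The interaction ranged from -0.74 to 0.13 for Spry2, from -0.0138 to 0.39 for Spred1, from -0.0536 to 0.0724 for Spred2 and from -0.69 to 0.21 for Spred3. The cause of these reversals was not tested. Counts of 1 to 3 limit Spry4 at rest. Without a low-count filter, 211, 204 and 39 of all genes were called in activated cKO against control, at rest and in the interaction, with DESeq2 19, 29 and 3, but no member.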
